A study of Mus musculus with 12 samples.

Results

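The genes described here are 39 members of the ATF4 stress programme, amino acid supply and tRNA charging, measured in mouse embryonic fibroblasts after treatment with a plant flavone. They were chosen by name and by role, with earlier results of these data known. They were matched to the gene names of the deposited table: 12 stress regulators, 8 enzymes of amino acid synthesis and one-carbon metabolism, 7 amino acid transporters and 12 cytosolic tRNA synthetases. All 39 were among the 24458 genes of the table, each with 1 entry, and all 39 passed the filter on low values (an average of at least 10 normalized counts) that left 12198 genes for testing. The 12 samples were RNA sequencing libraries of fibroblasts grown in flasks to no more than the fifth passage. Of these, 4 were kept in control medium (untreated), 4 received apigenin at 50 µM and 4 received chrysin at 50 µM, each for 24 h. Apigenin and chrysin are flavones that differ in 1 hydroxyl group, which apigenin carries on its B ring and chrysin lacks. The sources used here do not give the strain of the embryos, nor whether solvent was added to the control medium. Both flavones were set against the same 4 untreated libraries, so their comparisons with untreated cells are not independent of each other.

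ATF4 is a transcription factor of the integrated stress response, in which kinases that sense endoplasmic reticulum stress, amino acid shortage, haem shortage or double-stranded RNA phosphorylate the translation factor eIF2. General translation then falls, while the ATF4 messenger RNA is translated more, so that the ATF4 protein can rise without its messenger RNA. ATF4 binds CARE elements, composite sites shared with C/EBP proteins, and switches on genes for amino acid synthesis, uptake and tRNA charging together with regulators such as CHOP, TRIB3 and GADD34. Only messenger RNA was measured here.

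The deposited values were log2 levels, log2(normalized count + 1). Recovered read totals ran from 4298640 (chrysin replicate 2) to 15512635 (apigenin replicate 2), and 3 reads corresponded to 1.44 to 6.24 normalized counts. All 12 fibroblast markers on the list were detected, with a summed normalized count of 156700 to 168600 in untreated, 69500 to 82740 in apigenin and 85450 to 99300 in chrysin libraries. Of these 12 markers, 11 fell and 1 rose with apigenin, and 9 fell with chrysin. The 8 leukocyte markers summed to 374.3 to 449.9 in untreated, 852.3 to 1052 in apigenin and 396.6 to 466.2 in chrysin libraries, with Cd3e at 0 in every library. Of the 6 leukocyte markers that were tested, 1 rose and 5 did not pass with apigenin, and none of the 6 passed with chrysin. The 6 neural markers summed to 3126 to 3608, 390.6 to 1130 and 1348 to 1661 in the same order, with Olig2 at 0 in every library, and the 6 endothelial markers to 79.8 to 95.7, 16.28 to 27.67 and 29.14 to 65.28. The 5 adipocyte markers summed to 80.32 to 129.2, 18.47 to 57.46 and 144.5 to 224.8, with Lep and Cfd at 0 in every library, and the 6 skeletal muscle markers to 22.6 to 43.3, 11.96 to 39.26 and 44.48 to 83.24. The 7 epithelial markers summed to 17.09 or less in every library, with overlap between all groups. The part of these marker levels in the results below was not tested. In bulk RNA, fewer cells of a type and less RNA per cell cannot be told apart.

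With apigenin 25 of the 39 genes changed, of which 10 rose and 15 fell, or 64.1%, at an adjusted p under 0.05 in limma. Over all genes tested, 46.2% were called, 23% higher and 23.2% lower. With chrysin 19 genes changed, of which 13 rose and 6 fell, or 48.7%, against 53% of all genes tested (26.3% higher and 26.7% lower). The median log2 difference of the 39 genes was -0.11 with apigenin and 0.14 with chrysin, beside 0.01 and -0.03 over all genes tested. The split between higher and lower depended on the scaling: with each library scaled to its total reads, 13 rose and 9 fell with apigenin and 11 rose and 10 fell with chrysin, and after quantile normalization 11 rose and 9 fell with chrysin. Scaling to total reads moved the median of all genes by 0.13 with apigenin, -0.08 with chrysin and 0.21 between the flavones. The values of the groups did not overlap for 22 of the 39 genes with apigenin (9 higher and 13 lower) and for 19 with chrysin (12 higher and 7 lower). Over all genes tested this held for 45.1% with apigenin (22.2% higher and 22.8% lower) and for 51.4% with chrysin (25.7% higher and 25.7% lower). The calls were divided by role. Among stress regulators, 6 of 12 rose and 1 fell with apigenin, and 5 rose and 3 fell with chrysin. Among synthesis enzymes, 1 of 8 rose and 3 fell with apigenin, and 3 rose and 2 fell with chrysin. Among transporters, 3 of 7 rose and 1 fell with apigenin, and 4 rose and 1 fell with chrysin. Among tRNA synthetases, none of 12 rose and 10 fell with apigenin, while 1 rose (Nars) and none fell with chrysin.

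**Figure D1:**
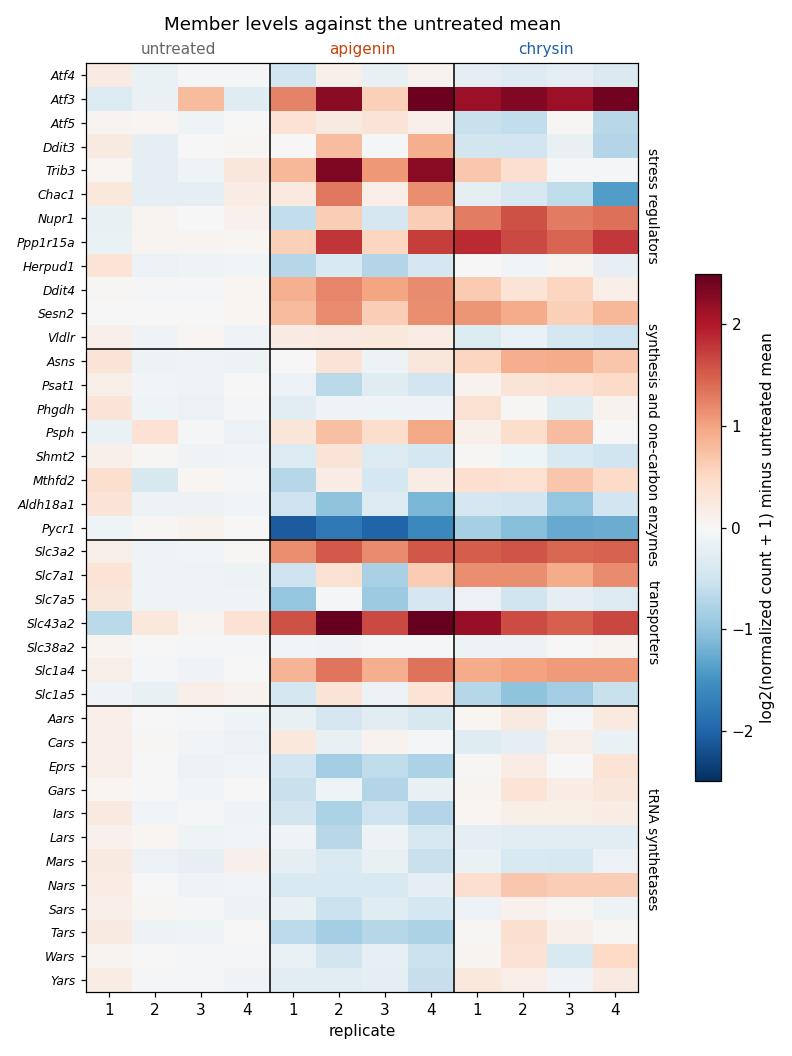
Log2 level of each of the 39 genes (rows, by role) in each of the 12 libraries (columns) minus the mean of that gene in the 4 untreated libraries, with the colour scale ending at 2.5 either way. The tRNA synthetases are mostly below the untreated mean in the 4 apigenin libraries, where 10 of 12 fell, and Slc43a2, Slc3a2 and Slc1a4 are above it in all 8 treated libraries.

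Of the 39 genes, 7 rose with both flavones (Atf3, Ppp1r15a, Ddit4, Sesn2, Slc3a2, Slc43a2 and Slc1a4) and 2 fell with both (Aldh18a1 and Pycr1). Psat1 and Nars fell with apigenin and rose with chrysin. The share of all genes tested with each such pair of calls was not counted, so these counts have no background beside them. Singly, 46.2% of all genes were called with apigenin and 53% with chrysin, against the same untreated libraries. Nupr1, Asns, Mthfd2 and Slc7a1 passed the test as higher with chrysin and did not pass it with apigenin, while Trib3, Chac1 and Psph did so with apigenin and not with chrysin. Whether such a pair of effects differed was tested separately, by setting apigenin directly against chrysin. In that comparison 23 of the 39 genes were called, 7 higher and 16 lower in apigenin, or 59%, against 50.7% of all genes tested (24.7% higher and 26.1% lower), and with each library scaled to its total reads 11 were higher and 11 lower. The flavone groups did not overlap for 22 genes (7 higher and 15 lower in apigenin), against 41% of all genes tested (19.5% higher and 21.5% lower).

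The promoters were read for the CARE letters, since CARE elements are where ATF4 is known to bind. RefSeq promoters on build GRCm38.p6, from 250 bases before to 50 after the start site, were found for 33 of the 39 genes. None was found for Slc7a5, Slc1a5, Cars, Lars, Nars and Wars, so the letters could not be searched for in those genes. TGATGNAA, searched on both strands, was present in 14 of these 33: Atf3, Trib3, Chac1, Nupr1, Herpud1, Vldlr, Asns, Pycr1, Slc1a4, Aars, Gars, Iars, Tars and Yars. It was present in 1304 of all 32851 promoters in the table (3.97%), and 4.51% of all 27025 genes had at least 1 such promoter. The endoplasmic reticulum stress element, CCAAT and CCACG with 9 bases between them, was in none of the 33 and in 0.119% of all promoters. Its second form, ATTGG and CCACG with 1 base between them, was in Herpud1 and in 0.0365% of all promoters. Both were searched on both strands. The motifs did not overlap in Herpud1.

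The stretches shown are those of 10 genes whose levels are described below and that moved in different ways. Each is written 5′ to 3′ on the strand of the gene, and capitals mark the match, which appears as its reverse complement where it lies on the opposite strand. In Herpud1 the second run of capitals is the second form of the endoplasmic reticulum stress element.
Atf3: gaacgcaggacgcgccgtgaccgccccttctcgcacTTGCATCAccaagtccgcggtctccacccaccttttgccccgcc
Trib3: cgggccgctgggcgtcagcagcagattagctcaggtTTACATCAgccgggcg
Chac1: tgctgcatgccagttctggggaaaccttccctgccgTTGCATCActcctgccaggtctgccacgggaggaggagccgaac
Nupr1: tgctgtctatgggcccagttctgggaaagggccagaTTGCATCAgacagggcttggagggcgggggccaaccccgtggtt
Herpud1: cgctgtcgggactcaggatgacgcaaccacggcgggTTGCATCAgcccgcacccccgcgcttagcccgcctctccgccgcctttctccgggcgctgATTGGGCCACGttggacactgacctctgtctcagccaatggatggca
Asns: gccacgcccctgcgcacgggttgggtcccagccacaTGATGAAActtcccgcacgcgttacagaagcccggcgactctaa
Pycr1: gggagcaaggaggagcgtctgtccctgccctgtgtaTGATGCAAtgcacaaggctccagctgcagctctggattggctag
Slc1a4: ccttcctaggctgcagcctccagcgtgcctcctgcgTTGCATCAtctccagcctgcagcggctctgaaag
Gars: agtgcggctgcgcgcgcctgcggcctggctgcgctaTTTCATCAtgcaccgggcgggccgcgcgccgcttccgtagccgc
Tars: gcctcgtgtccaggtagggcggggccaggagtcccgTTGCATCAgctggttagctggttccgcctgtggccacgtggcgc

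On GRCm38.p6 these stretches lie at chr1:191183400-191183479 for Atf3, chr2:152344031-152344082 for Trib3, chr7:126625537-126625616 for Nupr1, chr6:7693189-7693268 for Asns, chr11:120643808-120643887 for Pycr1, chr11:20332684-20332753 for Slc1a4 and chr15:11399630-11399709 for Tars, all on the minus strand. Those on the plus strand lie at chr2:119351013-119351092 for Chac1, chr8:94386281-94386423 for Herpud1 and chr6:55037935-55038014 for Gars. The match started 110 bases before the start site in both Atf3 and Nupr1, 193 before it in Chac1, 112 in Herpud1, 103 in Pycr1, 30 in Gars, 23 in Asns and 15 in Tars, whereas in Trib3 it lay after the start site and in Slc1a4 across it.

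Genes that hold the letters did not move as one. Of the 14, 4 rose with apigenin (Atf3, Trib3, Chac1 and Slc1a4), 7 fell (Herpud1, Pycr1, Aars, Gars, Iars, Tars and Yars) and 3 did not pass the test. All 5 synthetases that hold the letters were among the 7 that fell. With chrysin 4 rose (Atf3, Nupr1, Asns and Slc1a4), 2 fell (Vldlr and Pycr1) and 8 did not pass the test. Over all genes tested, 23% were called higher and 23.2% lower with apigenin, and 26.3% higher and 26.7% lower with chrysin. Whether the letters bear on the calls was not tested. A match is a run of letters and not a site shown to be bound.

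**Figure D2:**
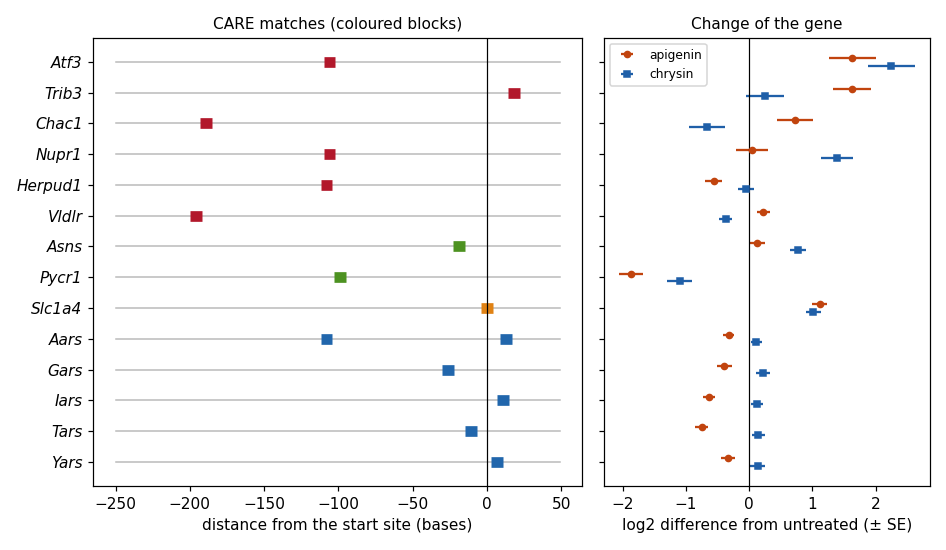
Position of each TGATGNAA match (points) in bases from the start site, in the promoters of the 14 genes that hold it, beside the log2 difference of each gene with apigenin and with chrysin from limma. Matches lie on both sides of the start site. The genes that hold them include 4 that rose and 7 that fell with apigenin, beside 23% higher and 23.2% lower over all genes tested.

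Among the stress regulators, the Atf4 transcript itself was abundant in all groups and did not rise. Atf4, the transcription factor that gives the response its name, had levels of 10.96, 10.59, 10.73 and 10.73 in untreated, 10.27, 10.89, 10.56 and 10.84 in apigenin and 10.52, 10.44, 10.50 and 10.40 in chrysin libraries. Apigenin replicates 1 and 3 lay below every untreated library and replicates 2 and 4 lay within the untreated range, while all 4 chrysin libraries lay below every untreated one. The log2 difference was -0.11 ± 0.12 (SE, adjusted p = 0.454) with apigenin and -0.29 ± 0.12 (adjusted p = 0.0472) with chrysin. The fall with chrysin was lost without any 1 of untreated replicates 1, 3 and 4 or of the 4 chrysin replicates, at -0.31 to -0.22 and adjusted p from 0.0589 to 0.154. It was also lost after centring on the median, with the replicate number as a block, without the filter, with another variance model and with limma-voom. Per kilobase of exon, Atf4 stood at 1005 normalized counts in untreated cells, beside 9.36 for Atf3 and 953 for Nupr1. Atf5, a related factor that ATF4 is known to act on, differed by 0.26 ± 0.13 (adjusted p = 0.0964) with apigenin and fell by 0.46 ± 0.13 on the log2 scale (adjusted p = 0.00551) with chrysin. Without chrysin replicate 3, whose Atf5 level of 10.61 stood above the 9.89 to 10.02 of the other chrysin libraries, the apigenin difference of 0.26 passed the test (adjusted p = 0.0137).

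Atf3, a stress-induced repressor of the same family, rose with both flavones. Its levels were 3.87, 4.05, 5.00 and 3.91 in untreated, 5.45, 6.46, 4.80 and 6.65 in apigenin and 6.35, 6.53, 6.34 and 6.62 in chrysin libraries. All chrysin values exceeded all untreated values, and apigenin replicate 3 alone fell below the highest untreated library. The log2 difference was 1.63 ± 0.37 (adjusted p = 0.00167) with apigenin and 2.25 ± 0.37 (adjusted p = 8.14e-05) with chrysin. With apigenin replicates 1 and 3 only, the apigenin difference of 0.92 did not pass (adjusted p = 0.0538). Ppp1r15a encodes GADD34, which directs the phosphatase that removes phosphate from eIF2. Its levels were 8.64, 8.87, 8.88 and 8.85 in untreated, 9.40, 10.60, 9.34 and 10.54 in apigenin and 10.67, 10.45, 10.27 and 10.57 in chrysin libraries. Every treated library stood above every untreated one. The rise was 1.16 ± 0.26 (adjusted p = 0.00293) with apigenin and 1.68 ± 0.26 (adjusted p = 0.000174) with chrysin. In the direct comparison the difference between the flavones did not pass the test for Atf3, at -0.62 with a 95% interval of -1.39 to 0.16, nor for Ppp1r15a, at -0.52 with an interval of -1.08 to 0.05. Ppp1r15a passed it when apigenin replicate 2 or 4 was left out, at -0.73 to -0.71 and adjusted p of 0.021 to 0.029.

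CHOP, TRIB3 and CHAC1 form a group that is known to act together in prolonged stress. Trib3, a pseudokinase that restrains AKT and ATF4, had levels of 6.57, 6.30, 6.42 and 6.82 in untreated, 7.35, 8.86, 7.61 and 8.79 in apigenin and 7.2, 6.95, 6.47 and 6.49 in chrysin libraries. The apigenin libraries stood above all 8 others, and the chrysin libraries overlapped the untreated ones. Trib3 rose 3.08-fold with apigenin (1.62 ± 0.30, adjusted p = 0.000469), differed by 0.25 ± 0.30 with chrysin (adjusted p = 0.51) and was higher by 1.37 in apigenin than in chrysin (adjusted p = 0.00154). Ddit3, which encodes CHOP, had levels of 8.87, 8.41, 8.65 and 8.69 in untreated, 8.65, 9.42, 8.63 and 9.57 in apigenin and 8.19, 8.18, 8.47 and 7.92 in chrysin libraries. Apigenin replicates 2 and 4 were highest and 3 of the 4 chrysin libraries were lowest, while the remaining libraries overlapped. Neither flavone passed the test against untreated cells, at 0.41 ± 0.20 (adjusted p = 0.096) with apigenin and -0.46 ± 0.20 (adjusted p = 0.058) with chrysin, but the flavones differed from each other by 0.88 (adjusted p = 0.00159). The apigenin difference passed when apigenin replicate 1 or 3 was left out (0.55 to 0.56, adjusted p = 0.0239 to 0.0251). The chrysin one passed when untreated replicate 2, any 1 apigenin replicate or chrysin replicate 3 was left out (-0.56 to -0.46, adjusted p = 0.0278 to 0.0468).

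Chac1, which breaks down glutathione, had levels of 6.83, 6.34, 6.35 and 6.76 in untreated, 6.82, 7.89, 6.74 and 7.73 in apigenin and 6.35, 6.17, 5.93 and 5.18 in chrysin libraries. Apigenin replicates 2 and 4 stood above all other libraries, and apigenin replicates 1 and 3 lay among the untreated ones. The rise with apigenin was 0.73 ± 0.29 (adjusted p = 0.0492), and the chrysin difference was -0.67 ± 0.29 (adjusted p = 0.0613). The apigenin call ended without any 1 untreated replicate, apigenin replicate 2 or 4, or chrysin replicate 2 or 3 (0.53 to 0.81, adjusted p = 0.055 to 0.16). Among other settings, it also ended with apigenin replicates 1 and 3 only. Over all settings that lost it, the difference was 0.21 to 0.81, with adjusted p up to 0.602. The chrysin difference passed the test without apigenin replicate 1, 2 or 3 or chrysin replicate 1 (-0.82 to -0.67, adjusted p = 0.0379 to 0.0493). Between the flavones Chac1 differed by 1.39 (adjusted p = 0.000782).

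Nupr1 encodes a small stress-induced nuclear protein, and its level separated the flavones in the other direction. Its levels were 11.00, 11.26, 11.19 and 11.29 in untreated, 10.57, 11.80, 10.77 and 11.81 in apigenin and 12.46, 12.77, 12.48 and 12.57 in chrysin libraries. All chrysin libraries stood above the rest, while apigenin replicates 1 and 3 lay below and replicates 2 and 4 above every untreated library. Nupr1 rose 2.61-fold with chrysin (1.38 ± 0.25, adjusted p = 0.000759) and was lower by -1.33 in apigenin than in chrysin (adjusted p = 0.00106). The apigenin difference from untreated was 0.05 ± 0.25 (adjusted p = 0.888).

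Of the regulators that restrain mTORC1, the growth kinase complex that senses amino acids, both rose with both flavones. Ddit4, which encodes REDD1, had levels of 7.88, 7.82, 7.82 and 7.90 in untreated, 8.74, 9.08, 8.85 and 9.03 in apigenin and 8.51, 8.19, 8.40 and 8.02 in chrysin libraries. The 3 groups did not overlap. The rise was 1.07 ± 0.13 (adjusted p = 3.31e-06) with apigenin and 0.42 ± 0.13 (adjusted p = 0.00883) with chrysin, and the flavones differed by 0.65 (adjusted p = 0.000411). Sesn2, a leucine sensor, had levels of 9.11, 9.10, 9.11 and 9.16 in untreated, 9.91, 10.31, 9.74 and 10.29 in apigenin and 10.23, 10.04, 9.72 and 9.95 in chrysin libraries. All treated libraries were above all untreated ones, and the flavone groups overlapped. Sesn2 rose by 0.94 ± 0.13 (adjusted p = 1.73e-05) and 0.87 ± 0.13 (adjusted p = 3.24e-05), and the flavones differed by 0.08 with a 95% interval of -0.19 to 0.35.

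Herpud1 and Vldlr moved differently from these. Herpud1, a membrane protein of endoplasmic reticulum-associated degradation whose promoter held both motifs, had levels of 9.18, 8.70, 8.73 and 8.77 in untreated, 8.13, 8.46, 8.12 and 8.43 in apigenin and 8.86, 8.77, 8.92 and 8.64 in chrysin libraries. It was lowest in the apigenin group, with no overlap, and the chrysin libraries overlapped the untreated ones. Herpud1 fell by 0.56 ± 0.13 on the log2 scale with apigenin (adjusted p = 0.002), and the chrysin difference was -0.05 (adjusted p = 0.771). Vldlr, a lipoprotein receptor, fell by 0.37 ± 0.10 with chrysin (adjusted p = 0.00511), differed by 0.22 ± 0.10 with apigenin (adjusted p = 0.08) and was 0.59 higher in apigenin than in chrysin (adjusted p = 0.000123).

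**Figure D3:**
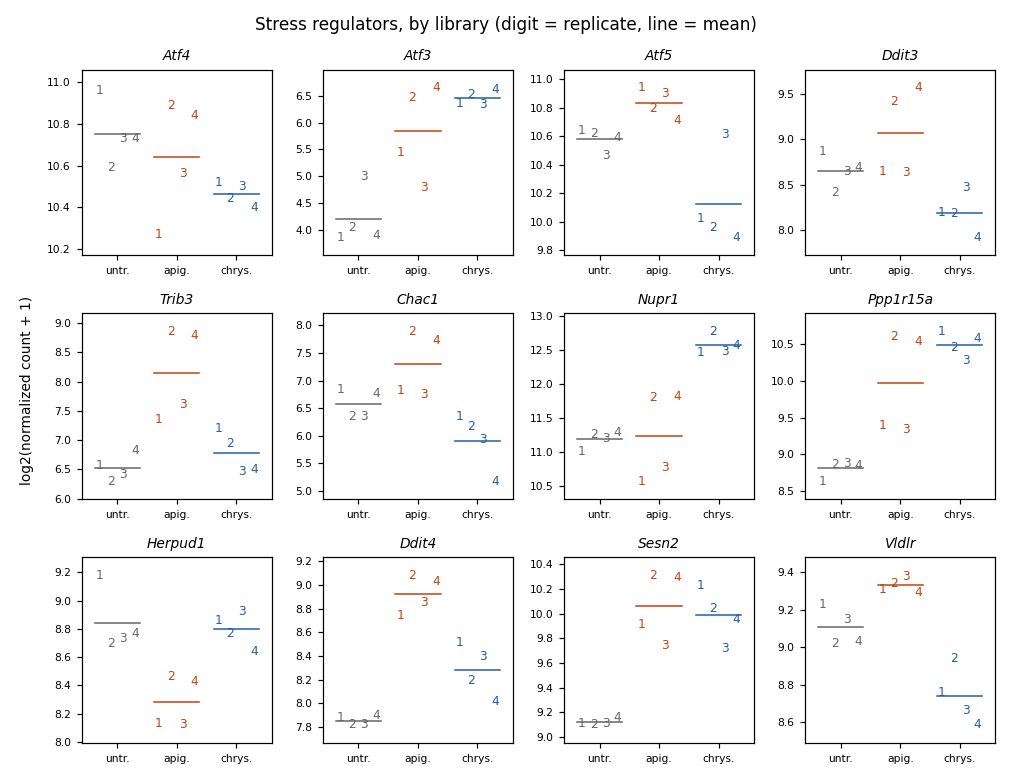
Log2 level (log2 of normalized count plus 1) of each of the 12 stress regulators in every library, by group. Digits are replicate numbers, and lines mark the mean of the 4 libraries of each group. Trib3 is above all other libraries in the apigenin group, Nupr1 in the chrysin group, and Sesn2 and Ppp1r15a are above the untreated libraries in both.

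The enzymes of amino acid synthesis did not move together. Asns, asparagine synthetase, had levels of 10.11, 9.67, 9.70 and 9.67 in untreated, 9.80, 10.10, 9.67 and 10.08 in apigenin and 10.32, 10.70, 10.71 and 10.49 in chrysin libraries. Every chrysin library exceeded all others, and the apigenin libraries lay within the untreated range. Asns rose by 0.77 ± 0.13 with chrysin (adjusted p = 9.15e-05) and differed by 0.13 with apigenin (adjusted p = 0.441), and it was lower by -0.64 in apigenin than in chrysin (adjusted p = 0.000515).

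The serine pathway runs from PHGDH through PSAT1 to PSPH. Psat1, the aminotransferase of the second step, had levels of 9.83, 9.61, 9.59 and 9.70 in untreated, 9.53, 9.01, 9.39 and 9.20 in apigenin and 9.77, 10.00, 10.05 and 10.16 in chrysin libraries. All apigenin libraries lay below all untreated ones, and chrysin replicate 1 lay below untreated replicate 1. Psat1 fell by 0.40 ± 0.12 on the log2 scale with apigenin (adjusted p = 0.01) and rose by 0.31 ± 0.12 with chrysin (adjusted p = 0.0338), a difference between the flavones of -0.71 (adjusted p = 9.48e-05). The fall with apigenin did not pass with apigenin replicates 1 and 3 only or with scaling to total reads (-0.27 to -0.22, adjusted p up to 0.138). The rise with chrysin did not pass without untreated replicate 2, 3 or 4 or chrysin replicate 2, 3 or 4 (0.25 to 0.31, adjusted p = 0.0611 to 0.109). That rise was also lost after quantile normalization, with scaling to total reads and with another variance model. Over all settings that lost it, the difference was 0.18 to 0.31, with adjusted p up to 0.203. Phgdh, the first enzyme, differed by -0.14 (adjusted p = 0.391) with apigenin and 0.05 (adjusted p = 0.775) with chrysin. The flavones differed in Phgdh by -0.19 with a 95% interval of -0.47 to 0.09, which passed the test only without chrysin replicate 3 (-0.31, adjusted p = 0.0473). Psph, the phosphatase that releases serine, rose by 0.61 ± 0.20 with apigenin (adjusted p = 0.0189) and differed by 0.33 with chrysin (adjusted p = 0.167). Without untreated replicate 1 or 4 or apigenin replicate 4, Psph did not pass (0.49 to 0.56, adjusted p = 0.0526 to 0.0695). Nor did it pass with apigenin replicates 1 and 3 only (0.37, adjusted p = 0.205).

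In one-carbon metabolism, Mthfd2, the mitochondrial folate dehydrogenase, had levels of 8.35, 7.55, 8.00 and 7.91 in untreated, 7.25, 8.14, 7.51 and 8.15 in apigenin and 8.37, 8.33, 8.65 and 8.44 in chrysin libraries. The chrysin libraries were highest on the whole, with untreated replicate 1 between them. Mthfd2 rose by 0.49 ± 0.20 with chrysin (adjusted p = 0.0465) and was lower by -0.69 in apigenin than in chrysin (adjusted p = 0.00897), which did not pass with apigenin replicates 2 and 4 only or with scaling to total reads (-0.47 to -0.30, adjusted p up to 0.141). The rise did not pass without untreated replicate 2, 3 or 4 or any 1 chrysin replicate (0.36 to 0.53, adjusted p = 0.0614 to 0.158). It was also lost after quantile normalization, with scaling to total reads, with the replicate number as a block, without the filter and with another variance model. Shmt2, which makes glycine from serine in mitochondria, differed by -0.19 (adjusted p = 0.321) and -0.24 (adjusted p = 0.21). Apigenin replicate 2, at 9.46, stood above the other 3 apigenin libraries (8.70 to 8.80), and without it Shmt2 was lower with apigenin (-0.37, adjusted p = 0.0294).

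The enzymes of proline synthesis fell with both flavones. Pycr1, which forms proline in the last step and whose promoter held TGATGCAA, had levels of 7.07, 7.22, 7.28 and 7.17 in untreated, 5.11, 5.39, 5.18 and 5.58 in apigenin and 6.36, 6.12, 5.93 and 5.94 in chrysin libraries. The 3 groups did not overlap, with apigenin lowest. Pycr1 fell by 1.87 ± 0.19 on the log2 scale with apigenin (adjusted p = 8.73e-07) and by 1.10 ± 0.19 with chrysin (adjusted p = 0.00016), and the flavones differed by -0.77 (adjusted p = 0.00324). Aldh18a1, which makes the precursor of proline from glutamate, had levels of 9.81, 9.37, 9.37 and 9.43 in untreated, 8.98, 8.49, 9.16 and 8.36 in apigenin and 9.07, 9.02, 8.52 and 9.01 in chrysin libraries. All treated libraries were below all untreated ones. It fell by 0.75 ± 0.17 (adjusted p = 0.00228) with apigenin and by 0.59 ± 0.17 (adjusted p = 0.00932) with chrysin, and the flavones differed by -0.16 with a 95% interval of -0.53 to 0.21.

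Among the transporters, Slc3a2, Slc43a2 and Slc1a4 rose with both flavones. Slc3a2, the heavy chain that carries LAT1, xCT and related light chains to the membrane, had levels of 10.42, 10.18, 10.22 and 10.31 in untreated, 11.44, 11.81, 11.46 and 11.83 in apigenin and 11.79, 11.86, 11.71 and 11.76 in chrysin libraries. The treated libraries stood above all untreated ones and overlapped each other. Slc3a2 rose 2.55-fold with apigenin (1.35 ± 0.10, adjusted p = 1.22e-08) and 2.82-fold with chrysin (1.5 ± 0.10, adjusted p = 4.41e-09). The flavones differed by -0.15 with a 95% interval of -0.35 to 0.06.

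Slc43a2, the leucine transporter LAT4, had levels of 6.08, 7.02, 6.82 and 7.12 in untreated, 8.35, 10.18, 8.41 and 10.11 in apigenin and 8.93, 8.40, 8.25 and 8.43 in chrysin libraries. No treated library overlapped the untreated ones, and apigenin replicates 2 and 4 were highest. Slc43a2 rose 5.66-fold with apigenin (2.5 ± 0.44, adjusted p = 0.000785) and 3.34-fold with chrysin (1.74 ± 0.44, adjusted p = 0.00607), with a difference between them of 0.76 and a 95% interval of -0.20 to 1.72. Slc1a4, the neutral amino acid exchanger ASCT1, had levels of 9.19, 9.01, 8.95 and 9.03 in untreated, 9.89, 10.39, 9.96 and 10.41 in apigenin and 9.98, 10.06, 10.10 and 10.11 in chrysin libraries. The treated libraries were again all above the untreated ones. It rose by 1.12 ± 0.12 (adjusted p = 9.45e-07) and 1.02 ± 0.12 (adjusted p = 2.13e-06), and the flavones differed by 0.10 with a 95% interval of -0.14 to 0.35.

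Slc7a1, the carrier of arginine and lysine, separated the flavones. Its levels were 9.58, 9.14, 9.14 and 9.11 in untreated, 8.73, 9.62, 8.43 and 9.88 in apigenin and 10.41, 10.40, 10.17 and 10.43 in chrysin libraries. The chrysin libraries were above all others, while apigenin replicates 1 and 3 lay below and 2 and 4 above every untreated library. Slc7a1 rose by 1.11 ± 0.27 with chrysin (adjusted p = 0.00382), differed by -0.08 with apigenin (adjusted p = 0.834) and was lower by -1.19 in apigenin than in chrysin (adjusted p = 0.00271). Slc1a5, the glutamine exchanger ASCT2, had levels of 7.48, 7.39, 7.74 and 7.66 in untreated, 7.12, 7.89, 7.42 and 7.92 in apigenin and 6.86, 6.56, 6.70 and 7.02 in chrysin libraries. Here the chrysin libraries were below all others. Slc1a5 fell by 0.78 ± 0.18 on the log2 scale with chrysin (adjusted p = 0.00185), differed by 0.016 with apigenin (adjusted p = 0.953) and was higher by 0.80 in apigenin than in chrysin (adjusted p = 0.00171).

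Slc7a5, the light chain of LAT1, fell by 0.58 ± 0.17 on the log2 scale with apigenin (adjusted p = 0.0109) and differed by -0.30 with chrysin (adjusted p = 0.152). Its apigenin libraries were at 9.44 to 10.37 and overlapped the untreated ones at 10.30 to 10.69, and with apigenin replicates 2 and 4 only the call was lost (-0.23, adjusted p = 0.132). The flavones differed in Slc7a5 by -0.28 with a 95% interval of -0.65 to 0.08, which passed without apigenin replicate 2 (-0.47, adjusted p = 0.00874). Slc38a2, the system A carrier SNAT2, ranged from 10.97 to 11.18 over all 12 libraries. Its difference was -0.06 (adjusted p = 0.531) with apigenin, -0.05 (adjusted p = 0.563) with chrysin and -0.0061 between the flavones, with a 95% interval of -0.16 to 0.15.

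The tRNA synthetases, which attach each amino acid to its tRNA, were lower with apigenin and mostly near the untreated level with chrysin. Their summed normalized count was 20240 to 23620 in untreated, 15110 to 17160 in apigenin and 22060 to 25280 in chrysin libraries. With apigenin 10 of 12 fell, with a median of -0.34, and 9 of the 12 had no overlap with the untreated libraries, all lower, where 22.8% of all genes tested had no overlap in that direction. With each library scaled to its total reads, 5 fell with apigenin (median -0.21) and 1 rose and 2 fell with chrysin, and after quantile normalization 8 fell with apigenin and 1 rose and 2 fell with chrysin. Over all genes tested, scaling to total reads gave 49.5% called with apigenin and 53.2% with chrysin. Quantile normalization gave 48% and 50.9%. With chrysin the median of the 12 synthetases was 0.13 under the main settings. Per kilobase of exon the levels in untreated cells ran from 1094 normalized counts for Nars, 933 for Gars and 878 for Sars down to 108 for Wars and 89.0 for Yars.

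The largest falls among the synthetases with apigenin were those of Tars, Eprs and Iars, which charge tRNAs with threonine, with glutamate and proline, and with isoleucine. Tars had levels of 10.46, 10.11, 10.13 and 10.24 in untreated, 9.58, 9.39, 9.52 and 9.45 in apigenin and 10.27, 10.63, 10.36 and 10.26 in chrysin libraries. Eprs had levels of 11.66, 11.50, 11.36 and 11.43 in untreated, 11.01, 10.62, 10.85 and 10.70 in apigenin and 11.51, 11.68, 11.50 and 11.84 in chrysin libraries. Iars had levels of 11.04, 10.76, 10.77 and 10.72 in untreated, 10.36, 10.04, 10.30 and 10.09 in apigenin and 10.87, 10.96, 10.97 and 11.00 in chrysin libraries. In all 3 genes each apigenin library was below the other 8 libraries, and the chrysin libraries overlapped the untreated ones. With apigenin Tars fell by 0.75 ± 0.10 (adjusted p = 1.81e-05), Eprs by 0.70 ± 0.10 (adjusted p = 3.49e-05) and Iars by 0.63 ± 0.09 (adjusted p = 4.23e-05) on the log2 scale. With chrysin they differed by 0.14 (adjusted p = 0.26), 0.14 (adjusted p = 0.254) and 0.13 (adjusted p = 0.27).

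Nars, which charges asparagine, fell with apigenin and rose with chrysin, alone among the 12. Its levels were 11.67, 11.49, 11.39 and 11.41 in untreated, 11.11, 11.11, 11.11 and 11.24 in apigenin and 11.90, 12.17, 12.11 and 12.10 in chrysin libraries. The 3 groups did not overlap. Nars fell by 0.35 ± 0.08 on the log2 scale with apigenin (adjusted p = 0.00261) and rose by 0.58 ± 0.08 with chrysin (adjusted p = 2.24e-05), a difference between the flavones of -0.93 (adjusted p = 1.66e-07). Asns, which makes asparagine, rose with chrysin as well, as given above.

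Of the others, Gars (glycine) fell by 0.39 ± 0.12 with apigenin (adjusted p = 0.0105), Sars (serine) by 0.36 ± 0.09 (adjusted p = 0.00399) and Aars (alanine) by 0.32 ± 0.09 (adjusted p = 0.00597). Gars did not pass with apigenin replicates 2 and 4 only or with scaling to total reads (-0.26 to -0.14, adjusted p up to 0.189). Sars did not pass with apigenin replicates 1 and 3 only or after quantile normalization (-0.24 to -0.21, adjusted p up to 0.0607), and Aars in neither of those nor with scaling to total reads (-0.235 to -0.11, adjusted p up to 0.249). Lars, Mars and Yars, for leucine, methionine and tyrosine, were lower as well, at -0.32 (adjusted p = 0.0274), -0.33 (adjusted p = 0.0397) and -0.33 (adjusted p = 0.0246). Lars did not pass without untreated replicate 1 or 2 or apigenin replicate 2 or 4 (-0.31 to -0.21, adjusted p = 0.0645 to 0.117). Mars did not pass without untreated replicate 1 or 4 or apigenin replicate 2 or 4 (-0.32 to -0.26, adjusted p = 0.0761 to 0.131). Yars did not pass without untreated replicate 1 or apigenin replicate 4 (-0.27 to -0.25, adjusted p = 0.0818 to 0.0972). Lars, Mars and Yars were also lost with apigenin replicates 1 and 3 only and with scaling to total reads. Over all settings that lost the call, adjusted p ran up to 0.415 for Lars (-0.32 to -0.11), 0.267 for Mars (-0.33 to -0.20) and 0.157 for Yars (-0.27 to -0.20). Untreated replicate 1 was the highest of the 4 untreated libraries in all 12 synthetases and in 29 of the 39 genes (74.4%), against 32.3% of all genes tested. Without it, as without apigenin replicate 4, 7 synthetases fell with apigenin, where 40.9% and 39.4% of all genes tested were called. With chrysin, Lars passed the test as lower without apigenin replicate 1 or 2 (-0.26, adjusted p = 0.0264 to 0.047) and Mars without untreated replicate 3 (-0.34, adjusted p = 0.049).

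Cars and Wars, for cysteine and tryptophan, did not pass the test with either flavone. Cars differed by 0.027 with apigenin (adjusted p = 0.869) and -0.14 with chrysin (adjusted p = 0.343). Wars, at 8.49 to 8.62 in untreated, 8.01 to 8.39 in apigenin and 8.17 to 9.04 in chrysin libraries, differed by -0.34 (adjusted p = 0.0899) and 0.14 (adjusted p = 0.488). The apigenin libraries of Wars were all below the untreated ones, and its difference passed without chrysin replicate 3 (-0.34, adjusted p = 0.0332).

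**Figure D4:**
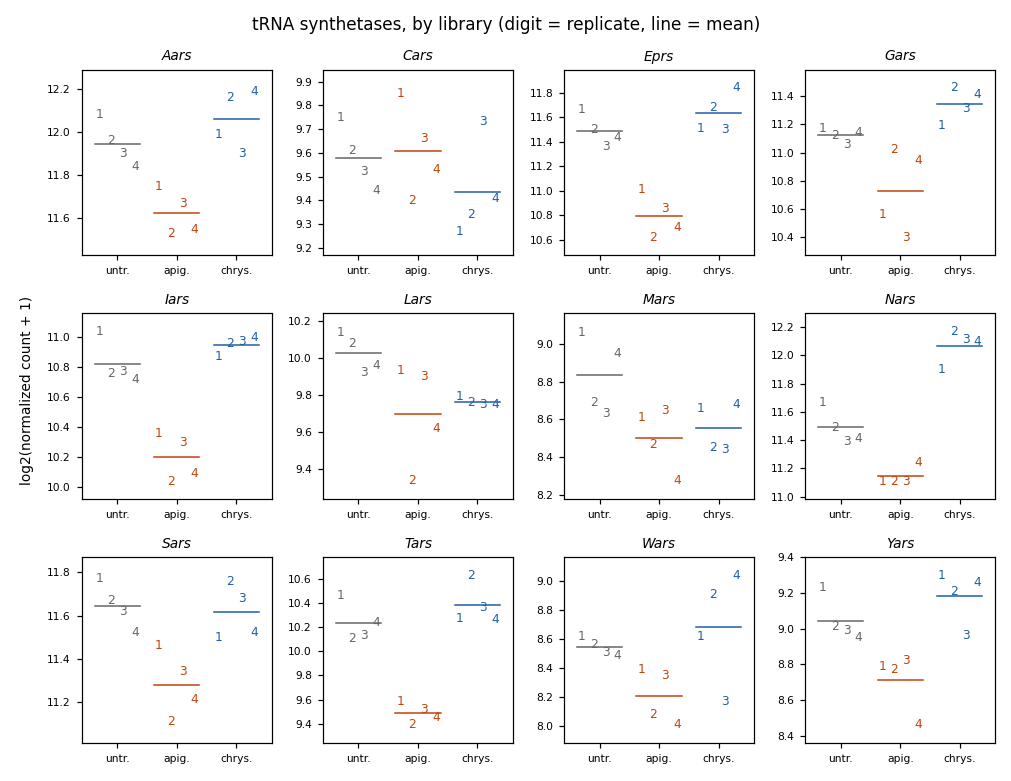
Log2 level (log2 of normalized count plus 1) of each of the 12 cytosolic tRNA synthetases in every library, by group. Digits are replicate numbers, and lines mark the mean of the 4 libraries of each group. Tars, Eprs and Iars are lowest in all 4 apigenin libraries, and Nars is highest in the chrysin libraries.

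Set directly against each other, apigenin and chrysin differed in 9 of 12 synthetases, all lower in apigenin, with a median of -0.47. Over all genes tested, 50.7% were called in this comparison, 24.7% higher and 26.1% lower in apigenin. With each library scaled to its total reads 1 was higher and 6 lower (median -0.26), and with apigenin replicates 1 and 3 only 1 was higher and 7 lower (median -0.36). Under these settings 53.6% and 51.1% of all genes tested were called. With all libraries and the main settings, the synthetases called beside Nars were Tars (-0.89, adjusted p = 2.56e-06), Eprs (-0.84, adjusted p = 4.5e-06), Iars (-0.76, adjusted p = 5.69e-06), Gars (-0.61, adjusted p = 0.000324), Yars (-0.47, adjusted p = 0.00267), Wars (-0.47, adjusted p = 0.0193), Aars (-0.43, adjusted p = 0.000524) and Sars (-0.33, adjusted p = 0.00641). Sars did not pass with apigenin replicates 1 and 3 only, after quantile normalization or with scaling to total reads (-0.21 to -0.03, adjusted p up to 0.784), Aars after quantile normalization (-0.11, adjusted p = 0.229) and Yars with scaling to total reads (-0.26, adjusted p = 0.0679). The Wars difference did not pass without apigenin replicate 4 or chrysin replicate 2 or 4 (-0.41 to -0.36, adjusted p = 0.0515 to 0.0808). It was also lost with apigenin replicates 1 and 3 only, with scaling to total reads and with only the 8 samples of the groups compared. Over all settings that lost it, the difference was -0.47 to -0.26, with adjusted p up to 0.159. The flavones differed by -0.06 with an interval of -0.31 to 0.18 in Lars, by -0.06 with an interval of -0.32 to 0.21 in Mars and by 0.17 with an interval of -0.09 to 0.42 in Cars. Of the stress regulators 6 were higher in apigenin (Atf5, Ddit3, Trib3, Chac1, Ddit4 and Vldlr) and 2 lower (Nupr1 and Herpud1). Herpud1, at -0.51 (adjusted p = 0.00351), did not pass with scaling to total reads (-0.30, adjusted p = 0.0656). Of the enzymes none was higher and 4 were lower (Asns, Psat1, Mthfd2 and Pycr1). Of the transporters 1 was higher (Slc1a5) and 1 lower (Slc7a1). Atf5 differed by 0.72 (adjusted p = 0.000159), and Atf4 by 0.18 with an interval of -0.07 to 0.43, which passed the test without apigenin replicate 1 (0.30, adjusted p = 0.0226). Psph differed by 0.27 with an interval of -0.14 to 0.69 and Shmt2 by 0.04 with an interval of -0.28 to 0.37.

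**Figure D5:**
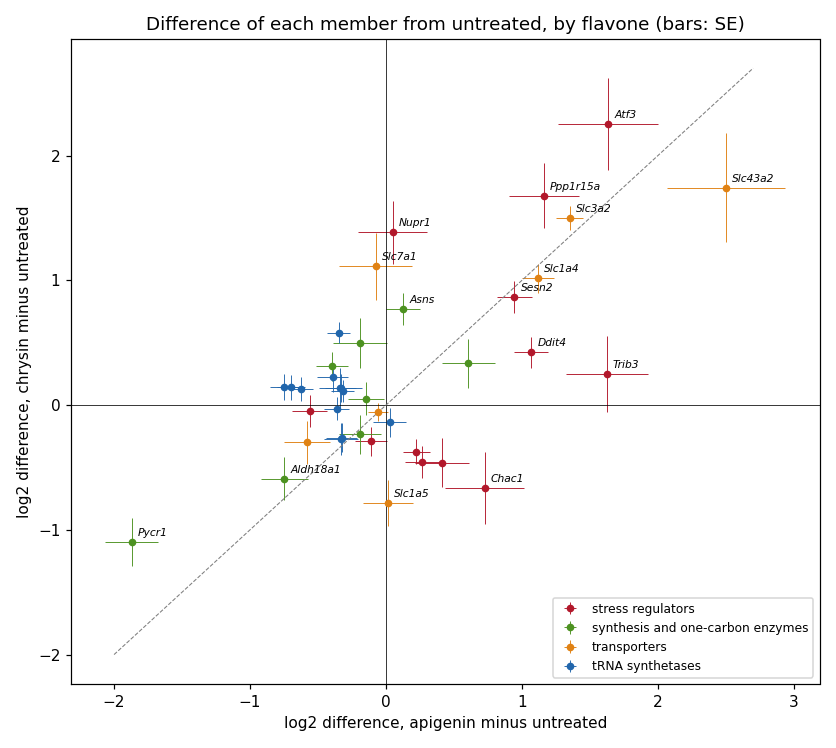
Log2 difference from untreated cells with apigenin (x axis) and with chrysin (y axis) for each of the 39 genes, coloured by role, with bars of 1 SE. Both axes share the 4 untreated libraries. Slc3a2 and Slc1a4 lie high on both axes, Pycr1 low on both, and 11 of the 12 synthetases lie left of 0 on the x axis, Cars being at 0.027, while Nars at 0.58 is the only synthetase called on the y axis.

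The 4 apigenin libraries did not form one group for these genes. Replicates 2 and 4 both stood above replicates 1 and 3 in 22 of the 39 genes and below them in 13, against 34.6% above and 34.1% below over all genes tested. By role they stood above in 10 of 12 stress regulators, 5 of 8 enzymes and 6 of 7 transporters, and below in 10 of 12 synthetases. Mean levels in replicates 2 and 4 against 1 and 3 were 6.56 and 5.13 for Atf3, 8.83 and 7.48 for Trib3, 11.8 and 10.67 for Nupr1 and 9.75 and 8.58 for Slc7a1. The labels name no batch. Read totals were 15512635 and 7899623 in replicates 2 and 4, and 6651676 and 10013188 in replicates 1 and 3. The cause of the division was not tested.

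With replicates 1 and 3 as the only apigenin libraries, 4 stress regulators rose and 3 fell, 3 enzymes fell, 3 transporters rose and 2 fell, and 5 synthetases fell (median -0.24). With replicates 2 and 4 only, 8 stress regulators rose and 1 fell, 1 enzyme rose and 3 fell, 4 transporters rose and none fell, and 10 synthetases fell (median -0.47). Over all genes tested, 35.5% were called with replicates 1 and 3 only and 54.9% with replicates 2 and 4 only. Nupr1 was lower than in untreated cells with replicates 1 and 3 only (-0.52, adjusted p = 0.000453), and Slc7a1 was higher with replicates 2 and 4 only (0.51, adjusted p = 0.00199). The calls among synthetases were all lower in both pairs of libraries, whereas Nupr1 and Slc7a1 lay on opposite sides of the untreated level.

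The other genes of these pathways gave the following counts, to be read beside the shares called over all genes tested. Those shares were 46.2% with apigenin (23% higher and 23.2% lower) and 53% with chrysin (26.3% higher and 26.7% lower). Of 17 other genes linked to ATF4, 7 rose and 7 fell with apigenin (82.4% called). With chrysin 3 rose and 4 fell (41.2%). Slc7a11, the light chain of the cystine carrier xCT that pairs with SLC3A2, had levels of 6.76, 7.00, 6.74 and 6.98 in untreated, 10.99, 10.62, 10.96 and 10.68 in apigenin and 10.51, 10.33, 10.32 and 10.40 in chrysin libraries. The 3 groups did not overlap, and both treated groups stood far above the untreated one. Slc7a11 rose by 3.95 ± 0.11 with apigenin (adjusted p = 2.4e-14) and 3.52 ± 0.11 with chrysin (adjusted p = 7.19e-13). Gadd45a, a growth arrest gene, rose by 2.56 (adjusted p = 1.11e-06) and 1.44 (adjusted p = 0.000138). Bcat1, which transfers the amino group of branched-chain amino acids, fell by 1.13 with apigenin (adjusted p = 4.79e-07), and Pck2, the mitochondrial carboxykinase, fell by 1.08 with chrysin (adjusted p = 2.76e-06).

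Of 20 endoplasmic reticulum chaperones and targets of ATF6 and XBP1, 7 rose and 1 fell with apigenin (40%, against 46.2% of all genes). With chrysin 9 rose and 1 fell (50%, against 53% of all genes). The gene that fell was Xbp1, the transcription factor of the unfolded protein response, at -0.83 (adjusted p = 1.82e-05) and -0.69 (adjusted p = 9e-05). The chaperone Hyou1 rose by 0.55 (adjusted p = 0.000432) and Derl2, a channel protein of degradation, by 0.42 (adjusted p = 0.0105) with apigenin. The co-chaperone Dnajb9 rose by 1.70 (adjusted p = 2.95e-05) and calnexin, Canx, by 0.40 (adjusted p = 8.65e-05) with chrysin. Of 15 genes of eIF2, its kinases, phosphatase subunits and exchange factor eIF2B, 2 rose and 4 fell with apigenin (40%, against 46.2%). With chrysin 8 rose and none fell (53.3%, against 53%). Eif2s2, the beta subunit of eIF2, fell by 0.38 (adjusted p = 0.007) with apigenin and rose by 0.67 (adjusted p = 4.71e-05) with chrysin. Eif2s1, the alpha subunit that the kinases phosphorylate, fell by 0.40 with apigenin (adjusted p = 0.00258), and Ppp1r15b, a constitutive partner of the eIF2 phosphatase, rose by 0.44 (adjusted p = 0.00445). Eif2b3 and Eif2s3x rose by 0.88 (adjusted p = 5.64e-05) and 0.47 (adjusted p = 0.000188) with chrysin.

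The synthetases outside the 39 genes did not show the same counts. Of 11 other cytosolic synthetases and proteins of their complex, 2 rose and 3 fell with apigenin (median 0.05). With chrysin 4 rose and none fell (median 0.17). These were 45.5% called with apigenin and 36.4% with chrysin, against 46.2% and 53% of all genes tested. Qars, for glutamine, rose with both flavones, by 0.53 (adjusted p = 5.85e-05) and 0.30 (adjusted p = 0.00527). With apigenin Dars, for aspartate, fell by 0.44 (adjusted p = 0.00119) and the scaffold gene Aimp2 by 1.06 (adjusted p = 4.09e-06). With chrysin Rars, for arginine, rose by 0.92 (adjusted p = 1.91e-07) and Farsb, a phenylalanine subunit, by 0.86 (adjusted p = 8.14e-06). Of 17 mitochondrial synthetases, none rose and 1 fell with apigenin (median 0, 5.88% called). With chrysin 1 rose and 4 fell (median -0.27, 29.4% called). The one that fell with apigenin was Wars2 (-0.98, adjusted p = 0.0122), which fell with chrysin too (-1.02, adjusted p = 0.00824), as did Aars2 (-1.24, adjusted p = 0.00847) and Vars2 (-0.74, adjusted p = 0.00592).

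Of 16 other enzymes of serine, glycine, folate and related metabolism, none rose and 2 fell with apigenin (12.5%, against 46.2% of all genes). With chrysin 3 rose and 3 fell (37.5%, against 53% of all genes). Those that fell with apigenin were the folate dehydrogenase Aldh1l1 (-1.04, adjusted p = 0.00237) and Gcsh of the glycine cleavage system (-0.47, adjusted p = 0.00277). With chrysin Mat2a, which makes S-adenosylmethionine, fell by 1.49 (adjusted p = 8.74e-07). Of 17 other amino acid transporters, 7 rose and 3 fell with apigenin (58.8% called), and 3 rose and 3 fell with chrysin (35.3%). Slc25a22, a mitochondrial glutamate carrier, rose with both, by 0.85 (adjusted p = 5.73e-05) and 0.77 (adjusted p = 0.000122). With apigenin Slc7a6, a light chain partner of SLC3A2, rose by 1.02 (adjusted p = 8.24e-06) and the glutamine carrier Slc38a1 by 0.59 (adjusted p = 0.000125). With chrysin Slc43a3 rose by 1.77 (adjusted p = 0.000262) and Slc7a2, an arginine carrier, fell by 0.96 (adjusted p = 1.73e-05).

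Exons of Atf5, Ddit3, Ppp1r15a, Shmt2, Aars, Cars, Mars and Yars overlap exons on the opposite strand in the GENCODE vM1 annotation of mm9. Ddit3 and Mars overlap each other (68 bases for Mars), and Ddit3 also overlaps RP24-341K21.6. Yars overlaps snoU13 on its own strand as well. The sources used here do not give the strand setting of the counting, and levels of these 8 genes are uncertain to that extent.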

How the data were processed

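Per the labels' protocols, a stranded mRNA kit was used for library preparation. The submitters' processing notes name STAR, HTSeq, DESeq2, cutadapt and FastQC and the build mm9. Versions, settings and strand option of these tools were not given in the sources used here. The authors deposited 1 log2 value per gene and sample, which is log2(normalized count + 1) as the values themselves show. Undoing it gave whole reads, within 0.05 reads, for 99.9658% to 100% of values under 500 reads in each library. The authors' group means and 2 ratio columns were not used.

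Genes averaging at least 10 normalized counts (12198 genes) were fitted on the log2 scale by limma 3.58.1 (R 4.3.3). The 3 group means were estimated from all 12 samples at once, and variances were moderated with trend and robust estimation. Two-sided p-values were adjusted by Benjamini-Hochberg over all genes tested, and calls were made below an adjusted p of 0.05. Errors of differences are standard errors from limma, and intervals are 95% intervals from the same fit. Differences on this scale understate changes of genes with few reads. The fit was also run on simulated counts with few genes changed and no division within a group, unlike these data. That run does not show how the fit behaves on these libraries. Tables and motifs were handled in Python 3.11.15 with pandas 2.3.3 and numpy 2.4.6. Exon lengths came from GENCODE vM1 on mm9, and promoters from RefSeq on GRCm38.p6.

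Groups came from the sample titles. The labels do not say that replicates were separate cultures, so the p-values reflect the spread between these samples alone, and that spread may be technical. The 39 genes and all lists were chosen with earlier results of these data known. All 39 were described, with up to 3 called genes of smallest p from each other list and flavone, a few of which are not reported here. Alternatives were other pseudocounts, filters, thresholds, variance models and scalings, a fit with the replicate number, fits without single libraries and fits of the compared groups alone. Pairs of apigenin libraries, scaling to total reads and limma-voom on recovered reads were chosen after seeing the data.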

Additional observations from a re-analysis of the deposited data

Results flagged for a closer look

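Single libraries stood apart from the other 3 of their group in 15 of the 117 sets of 4 values looked at (39 genes in 3 groups), judged by the gap to the nearest library over the whole range of the set. Chance alone gives about 1 in 20. All values are log2 levels.

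Untreated replicate 1 was the library in 7 of these. It was high for Herpud1 (9.18, others 8.70 to 8.77), Asns (10.11, others 9.67 to 9.70), Aldh18a1 (9.81, others 9.37 to 9.43), Slc7a1 (9.58, others 9.11 to 9.14), Slc7a5 (10.69, others 10.30 to 10.33) and Iars (11.04, others 10.72 to 10.77). It was low for Ppp1r15a (8.64, others 8.85 to 8.88). It had 4865169 reads, the fewest of the untreated libraries. In other untreated libraries, Atf3 was high in replicate 3 (5.00, others 3.87 to 4.05) and Sesn2 in replicate 4 (9.16, others 9.10 to 9.11).

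Among apigenin libraries, Phgdh was low in replicate 1 (9.39, others 9.56 to 9.57), Shmt2 was high in replicate 2 (9.46, others 8.70 to 8.80), and in replicate 4 Nars was high (11.24, others all 11.11) and Yars low (8.46, others 8.77 to 8.82). Among chrysin libraries, replicate 3 was low for Aldh18a1 (8.52, others 9.01 to 9.07) and for Slc7a1 (10.17, others 10.40 to 10.43).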

How the results depend on the processing

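The counts of genes that rose and fell stayed within 1.5 times under most alternatives. The exceptions were the falls with apigenin, 9 at an adjusted p under 0.01 and 9 with scaling to total reads against 15, the falls with chrysin, 11 with only the 8 samples of the groups compared and 10 with scaling to total reads against 6, and the genes higher in apigenin than in chrysin, 11 with apigenin replicates 2 and 4 only and 11 with scaling to total reads against 7. The causes were not tested. Leaving out 1 library gave 8 to 11 rises and 12 to 16 falls with apigenin, 11 to 13 rises and 5 to 9 falls with chrysin, and 7 to 8 higher and 15 to 18 lower in apigenin than in chrysin. Same-numbered libraries deviated with correlations of -0.0958 to 0.102, so the numbers were not taken to pair the libraries. With the replicate number as a block, 9 rose and 15 fell with apigenin, 12 and 5 with chrysin, and 7 were higher and 16 lower in apigenin than in chrysin. Of 2847 values of single genes under 25 alternatives, 2613 kept their direction and side of the threshold, 97 lost and 65 gained a call, and 72 changed sign. None of these 72 was called with all libraries and the main settings, and 4 were called under the alternative.

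Signs that changed against untreated with apigenin were Slc38a2 (0.0569) and Slc1a5 (-0.0253) after quantile normalization, Slc1a5 (-0.0166) and Cars (-0.0056) after centring, Ddit3 (-0.0145), Nupr1 (-0.5165), Asns (-0.0507) and Slc1a5 (-0.299) with apigenin replicates 1 and 3 only, Atf4 (0.1116), Mthfd2 (0.1917), Slc7a1 (0.5104) and Cars (-0.115) with replicates 2 and 4 only, and Atf4 (0.0179), Slc7a1 (0.0545) and Slc38a2 (0.0714) with scaling to total reads. With chrysin they were Phgdh (-0.071), Eprs (-0.0235), Iars (-0.025) and Tars (-0.006) after quantile normalization and Phgdh (-0.0306) with total reads.

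Between the flavones they were Slc3a2 (0.1613), Slc38a2 (0.2668) and Lars (0.0701) after quantile normalization, Shmt2 (-0.0104) after centring, Atf4 (-0.0467), Sesn2 (-0.1594), Shmt2 (-0.1008), Aldh18a1 (0.1665), Slc43a2 (-0.1216), Slc1a4 (-0.1347), Lars (0.1503) and Mars (0.0699) with apigenin replicates 1 and 3 only, Atf3 (0.0998), Ppp1r15a (0.0846), Slc3a2 (0.0373) and Slc7a5 (0.0687) with replicates 2 and 4 only, and Phgdh (0.0174), Aldh18a1 (0.0533), Slc3a2 (0.0638), Slc38a2 (0.2048), Lars (0.1461) and Mars (0.1527) with total reads.

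Leaving out 1 library also changed the sign, with ranges of -0.1962 to 0.0093 for Atf4, -0.1399 to 0.2709 for Nupr1, -0.3146 to 0.1696 for Slc7a1, -0.0937 to 0.1699 for Slc1a5 and -0.0519 to 0.0971 for Cars with apigenin, of -0.0983 to 0.0623 for Herpud1, -0.0619 to 0.1683 for Phgdh and -0.0795 to 0.0135 for Sars with chrysin, and of -0.0114 to 0.1849 for Sesn2, -0.1329 to 0.1318 for Shmt2, -0.0329 to 0.0321 for Slc38a2, -0.1425 to 0.0536 for Lars and -0.1074 to 0.0168 for Mars between the flavones. Depth limited Atf3 most, with 8 reads in its lowest library.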
